A study of Mus musculus with 8 samples.

Results

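The genes described here are 48 genes of glucose uptake, glycolysis, lactate production, pyruvate entry into the mitochondrion, the pentose phosphate pathway and the response to low oxygen, read in cardiac mesenchymal stromal cells (cMSCs) of aged and young mice. They were taken by name from the array, on which 104 probes carry these names, whatever their signal. All 48 were among the 20226 genes tested, out of 37325 distinct gene names on the array, with 86 of the 104 probes kept. The cMSCs were sorted from hearts as Sca-1+ PDGFRα+ cells without CD31, a protein of endothelium, or CD45, a protein of leukocytes.

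The aged group comprised 4 pools of C57BL/6 mice aged 20 months, numbered 1, 2, 3 and 4. The young group comprised 4 pools of C57BL/6 mice aged 5 months, numbered 2, 3, 4 and 5. A pool held cells of 3 mice, although the label of aged replicate 4 may stand for fewer animals. No treatment is named for either group. The study used male C57Bl/6JRj mice and also a CX3CR1gfp/+ CD45.1 reporter line, for which its methods state no sex of the mice used. The sources used here do not say which of the lines gave these pools. Each pool was read on its own 1-colour array, and all 8 arrays lay on 1 slide.

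Glycolysis breaks glucose down to pyruvate in the cytosol, and pyruvate is either reduced to lactate or oxidized in mitochondria, a step that pyruvate dehydrogenase kinases restrain. The pentose phosphate pathway branches off after the first phosphorylation of glucose and makes reducing power and ribose. When oxygen is scarce, the hypoxia-inducible factors (HIFs) escape degradation and switch on many genes of glucose uptake, glycolysis and cell survival, so that these pathways often move together. HIF activity is set mostly at the level of protein, which arrays do not measure.

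The signal of a gene is the log2 of its background-subtracted intensity over the 75th percentile of the array, and can be compared between pools but not between genes. Differences are aged minus young on this scale, with the standard error (SE) of the limma fit. A gene rose or fell where limma's p stayed under 0.05 after Benjamini-Hochberg adjustment across the 20226 genes.

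Young replicate 5 stood apart for these genes as a group. It was the lowest young pool for 28 of the 48 genes (58.3%) and for 36.6% of all genes tested, and the highest for 2 (4.17%) and for 24.7% of all genes. Its median deviation from the median of the young pools was -0.08 over the 48 genes, and that of the other 7 pools from their own group lay between -0.02 and 0.04. In an array-weight fit young replicate 5 had the lowest weight, 0.388, and aged replicate 4 the next, 0.545.

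**Figure D1:**
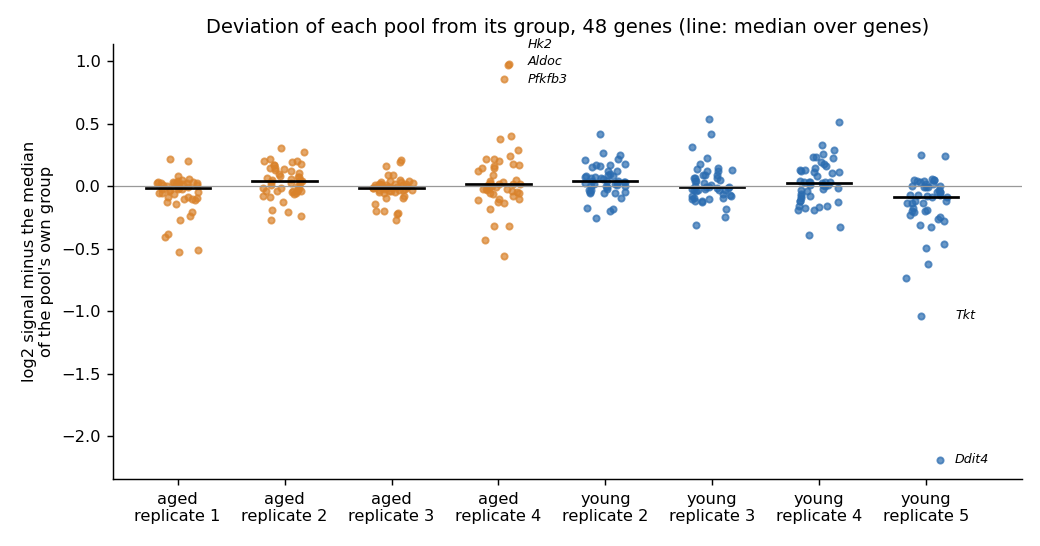
Deviation of each pool from the median of its own group, on the log2 scale, with a point for each of the 48 genes and a line at their median. Ddit4 and Tkt in young replicate 5 and Hk2, Aldoc and Pfkfb3 in aged replicate 4 lie farthest from their groups.

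Of the 48 genes, 2 rose in aged cMSCs, Bnip3 and Pdk1, and 1 fell, Slc2a4. Across all genes tested, 2.37% rose and 0.801% fell, so that 2 and 1 of 48, which are 4.17% and 2.08%, lay close to the background. The aged pools all lay above the young pools for 8 of the 48 genes (16.7%), against 6.68% of all genes. They all lay below the young pools for 1 of the 48 genes (2.08%), against 4.05% of all genes. The 8 were Bnip3, Pdk1, Eno2, Adm, Hif1a, Slc2a3, Ldhb and Ldha, and the 1 was Slc2a4. The median difference was 0.046 over the 48 genes and 0.0014 over all genes. Differences were above 0 for 31 of the 48 genes (64.6%) and for 50.4% of all genes. They were within 0.2 of 0 for 28 of the 48 genes (58.3%) and for 71.1% of all genes. At an unadjusted p under 0.05, 11 of the 48 genes were higher (22.9%, against 8.5% of all genes) and 1 was lower (2.08%, against 5.66%). The 11 include Aldoc, whose probe was kept only through the aged group, in which it was higher. At the thresholds of the study's methods, an unadjusted p under 0.01 and a difference beyond 0.5, the genes higher in aged pools were Bnip3, Eno2 and Adm (3 of 48, against 3.22% of all genes), and Slc2a4 was lower (1 of 48, against 1.26%). Without young replicate 5, a pool singled out by these same values, 1 of the 48 genes rose (Bnip3, against 1.65% of all genes) and 2 fell (Slc2a4 and Ddit4, against 0.574%). Without it and aged replicate 4, the counts were again 1 and 2, against 1.48% and 0.450% of all genes.

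**Figure D2:**
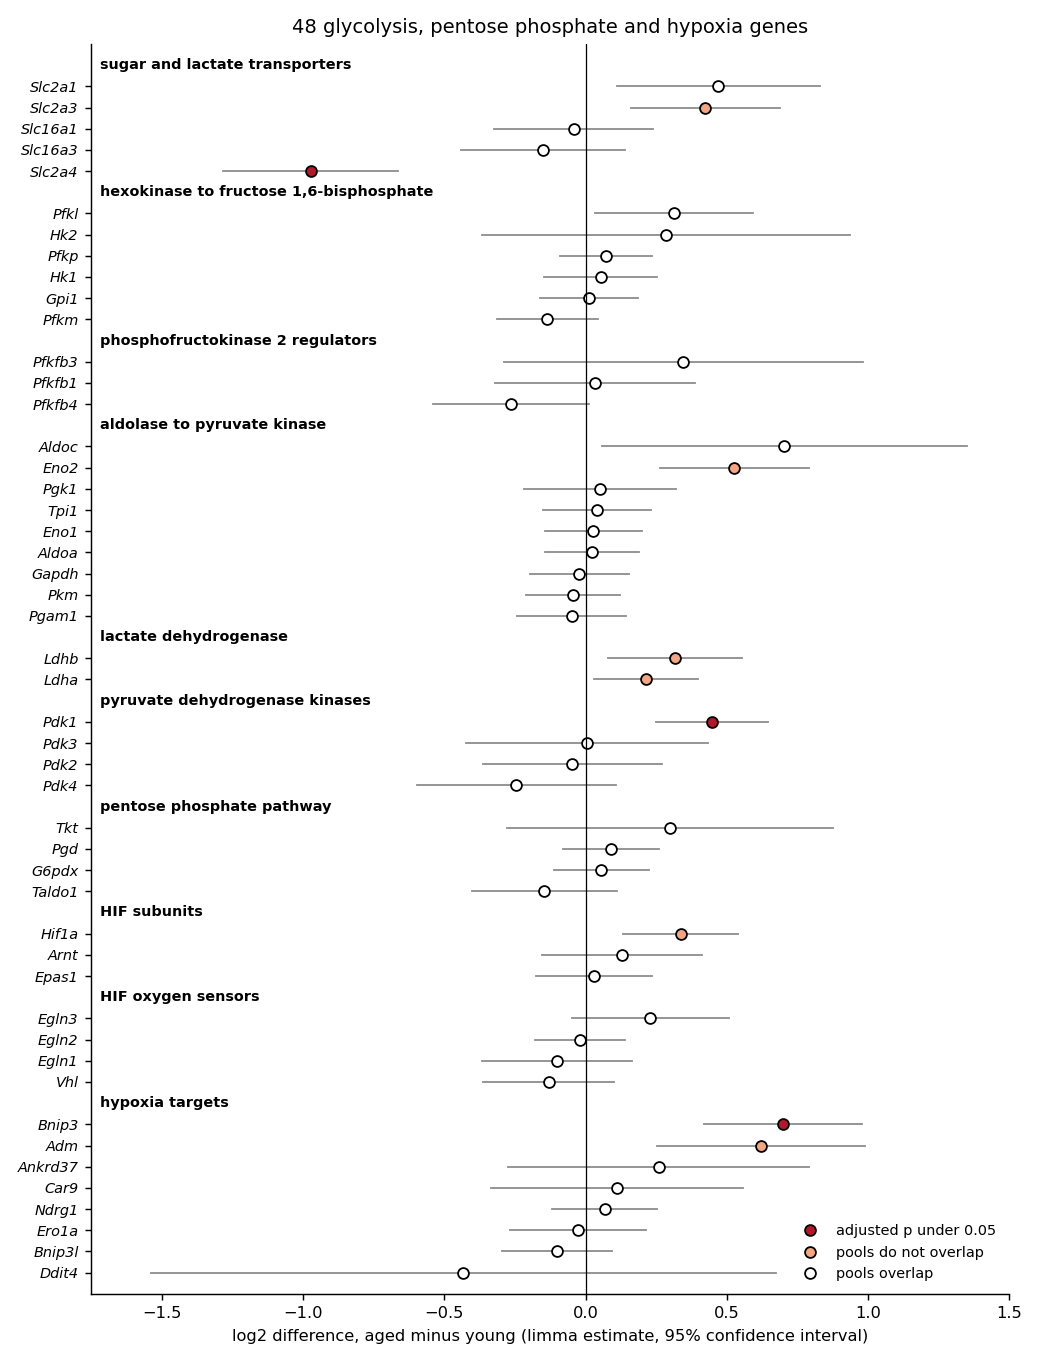
Difference between aged and young pools for each of the 48 genes, ordered by role, on the log2 scale with the 95% confidence interval of the limma fit (4 pools a group). Filled dark points passed an adjusted p of 0.05 (Slc2a4, Bnip3 and Pdk1), pale points did not pass but had pools that do not overlap, and most core enzymes lay near 0.

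Of the 5 transporters of glucose and lactate, 1 fell and none rose. Slc2a4 encodes GLUT4, the glucose transporter that insulin brings to the surface of muscle and fat cells. Its signal was -0.78, -0.54, -0.90 and -0.74 in aged replicates 1 to 4, against 0.59, 0.21, 0.01 and 0.12 in young replicates 2 to 5. Every aged pool lay below every young pool, and the nearest pair was 0.55 apart. Slc2a4 fell by 0.97 (SE 0.136, adjusted p = 0.00788 in limma), a 1.96-fold lower signal in aged pools. The 60-base probe lies at chr11:69756073-69756132 of the mouse build mm9, and the second Slc2a4 probe was not well above background on enough arrays to be kept. The difference was -0.93 between the pools in the first row of the slide and -1.02 between those in the second row.

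Genes of heart muscle cells were also lower in aged pools. Of 19 cardiomyocyte marker genes, 16 were tested, 13 were lower in aged pools, and 2 fell, Tnni3 (-0.32, adjusted p = 0.0425) and Pln (-0.90, adjusted p = 0.0445). The median difference of the tested markers was -0.48. The summed signal of all 19 markers, in multiples of the 75th percentile of the array, was 9.77 to 15.0 in aged pools and 16.0 to 18.6 in young pools, with no overlap. None of the 19 was below background on all arrays. The part of these markers in the Slc2a4 difference was not tested. In pools of cells, fewer cells of a type and less RNA per cell cannot be told apart.

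**Figure D3:**
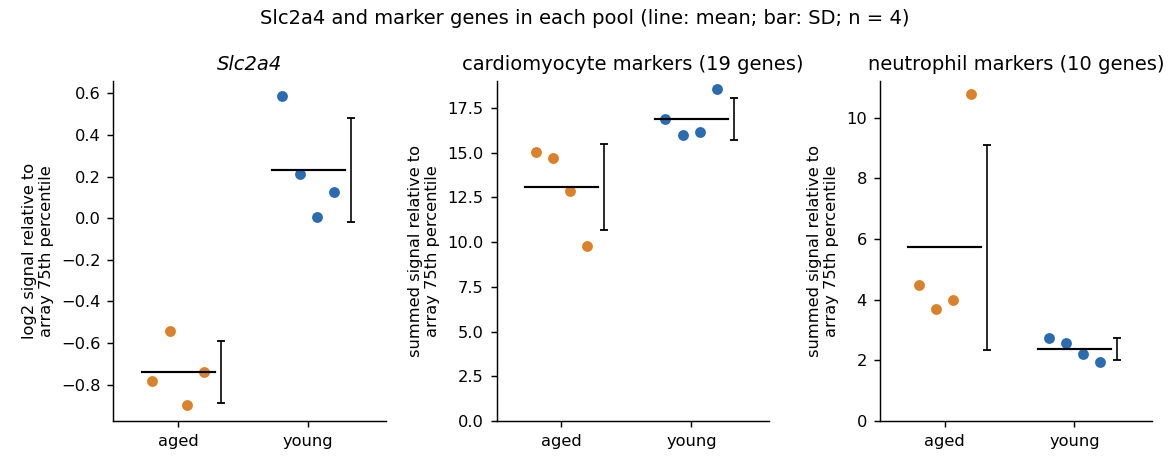
Signal of Slc2a4 (left, log2 over the 75th percentile of its array) and summed signal of the cardiomyocyte and neutrophil marker genes (middle and right, linear, in multiples of that percentile) in each aged and young pool, with the mean (line) and SD (bar), 4 pools a group. Aged pools were below young pools for Slc2a4 and for the cardiomyocyte sum, and above them for the neutrophil sum.

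Slc2a3 and Slc2a1, the other glucose transporters among the 48 genes, were higher on average in aged pools, and neither passed. Slc2a3 encodes GLUT3, a high-affinity transporter best known in neurons. Its signal was -0.86, -0.64, -0.66 and -0.36 in aged replicates 1 to 4, against -1.07, -0.94, -1.005 and -1.21 in young replicates 2 to 5. The aged pools all lay above the young pools by at least 0.08, and the difference of 0.42 did not pass (SE 0.116, adjusted p = 0.104). Slc2a1 encodes GLUT1, the transporter for basal glucose uptake of most cells. Its signal was 0.68, 0.98, 0.93 and 0.98 in aged replicates 1 to 4, against 0.58, 0.39, 0.72 and -0.01 in young replicates 2 to 5. Aged replicate 1 lay below young replicate 4, so the groups overlapped, and the difference was 0.47 (SE 0.158, adjusted p = 0.192). The lactate carriers Slc16a1 (MCT1) and Slc16a3 (MCT4, the exporter of glycolytic cells) differed by -0.04 and -0.15, both with overlapping pools.

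**Figure D4:**
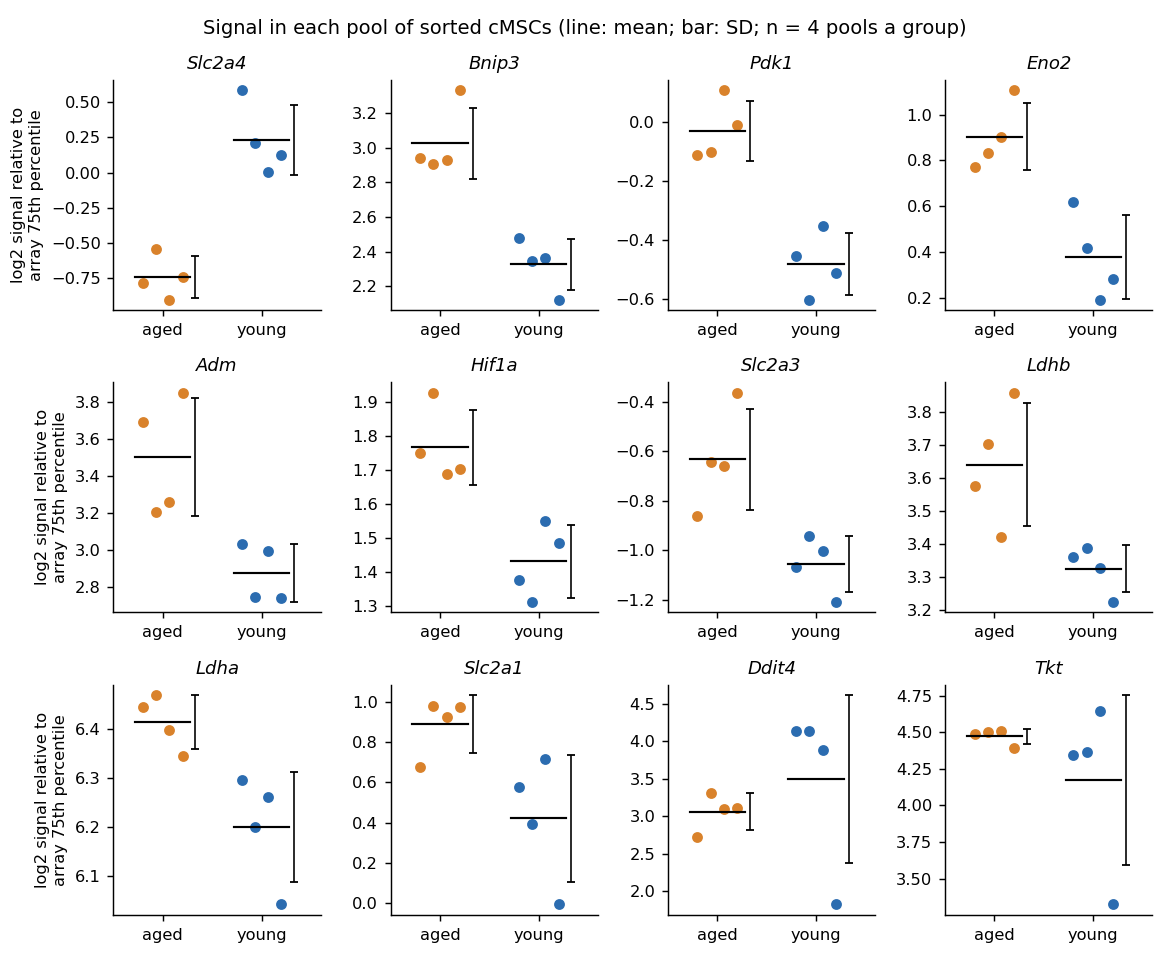
Signal (log2 over the 75th percentile of its array) in each aged and young pool for the 9 genes whose pools do not overlap and for Slc2a1, Ddit4 and Tkt, with the mean (line) and SD (bar), 4 pools a group. In the panels of Ddit4 and Tkt 1 young pool, replicate 5, lies far below the other 3.

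No gene of the first steps of glycolysis passed. Hexokinase traps glucose in the cell by phosphorylating it. Hk1, the widely expressed form, differed by 0.05 (SE 0.0876). Hk2, the form that insulin and hypoxia induce, had signals of -0.34, -0.02, 0.40 and 1.17 in aged replicates 1 to 4, against -0.15, 0.02, 0.17 and 0.03 in young replicates 2 to 5. The aged pools spread over a range that holds all young pools, and its difference of 0.28 (SE 0.285, adjusted p = 0.781) rested on aged replicate 4, without which it was -0.0042. Gpi1, the isomerase of the second step, differed by 0.01. Phosphofructokinase, the committed step, has 3 subunit genes, and the difference was 0.31 for the liver form Pfkl (SE 0.123, adjusted p = 0.281), -0.14 for the muscle form Pfkm and 0.07 for the platelet form Pfkp. A second, dimmer Pfkl probe gave 0.39 with all aged pools above all young pools, and an adjusted p of 0.0600 in the fit of probes, where 1.91% of probes rose.

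The enzymes of the Pfkfb family make and remove the metabolite that activates phosphofructokinase. Pfkfb3, the form linked to hypoxia and proliferation, had 0.32, 0.54, 0.92 and 1.58 in aged replicates 1 to 4, against 0.24, 0.59, 0.93 and 0.21 in young replicates 2 to 5. As for Hk2, aged replicate 4 was the highest pool, and the difference of 0.35 (SE 0.278, adjusted p = 0.704) was 0.10 without it. Pfkfb4 differed by -0.26 (adjusted p = 0.383) and the liver and muscle form Pfkfb1 by 0.03.

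The later steps of glycolysis, from aldolase to pyruvate kinase, were nearly level between the groups, apart from its tissue-restricted forms. Aldoa, Tpi1, Gapdh, Pgk1, Pgam1, Eno1 and Pkm, the widely expressed enzymes of these steps, had differences between -0.05 and 0.05 on their brightest probes. Over all kept probes of these genes the differences ran from -0.08 to 0.23. Both ends were dimmer Pkm probes with overlapping pools, and the higher did not pass (adjusted p = 0.388 in the limma fit of probes). A dim Eno1 probe gave 0.18, also with overlap. All 7 Gapdh probes were kept, and they differed by -0.07 to -0.01. Eno2 encodes the neuronal form of enolase, which many other cells also express. Its signal was 0.77, 0.83, 0.90 and 1.11 in aged replicates 1 to 4, against 0.62, 0.42, 0.19 and 0.28 in young replicates 2 to 5. The pools did not overlap, the nearest pair was 0.16 apart, and the difference of 0.53 lay just outside the threshold (SE 0.116, adjusted p = 0.0507). Aldoc, the brain form of aldolase, had the largest positive difference of the 48 genes, 0.70, but with an SE of 0.283 and an adjusted p of 0.299. Its probe was dim, well above background on 4 aged and 3 young arrays, and so was kept only through the group in which it was higher. The Aldoc pools ran from -4.30 to -3.20 in the aged group and from -5.21 to -4.27 in the young group.

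Both genes of lactate dehydrogenase, the enzyme between pyruvate and lactate, were higher in all aged pools than in any young pool, by small amounts that did not pass. Ldhb, the heart form, had 3.57, 3.70, 3.42 and 3.86 in aged replicates 1 to 4, against 3.36, 3.39, 3.33 and 3.22 in young replicates 2 to 5. The nearest pools were 0.03 apart, and the difference was 0.32 (SE 0.104, adjusted p = 0.182). Its second probe gave 0.32 as well, again with no overlap. Ldha, the muscle form and a HIF target, had 6.44, 6.47, 6.40 and 6.34 in aged replicates 1 to 4, against 6.30, 6.20, 6.26 and 6.04 in young replicates 2 to 5. The difference was 0.21 (SE 0.0809, adjusted p = 0.256), and a second, dimmer probe gave 0.10 with overlapping pools.

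Of the 4 pyruvate dehydrogenase kinases, which switch off the entry of pyruvate into the mitochondrial cycle, 1 rose. Pdk1, the form that HIF induces, had -0.11, -0.10, 0.11 and -0.01 in aged replicates 1 to 4, against -0.45, -0.60, -0.35 and -0.51 in young replicates 2 to 5. The groups were 0.24 apart at the nearest pools, and Pdk1 rose by 0.45 (SE 0.0869, adjusted p = 0.0317), a fold of 1.37. The difference was 0.49 in the first and 0.40 in the second row of the slide. Its 4 kept probes did not give the same value. The probe used, at chr2:71739926-71739985 of mm9, gave 0.45, the probe at chr2:71739688-71739747 gave 0.43, and those at chr2:71713523-71713582 and chr2:71722122-71722181 gave 0.12 and 0.15 with overlapping pools. With the mean of the 4 probes in place of the brightest, the difference was 0.29 and the adjusted p 0.236. The call was also lost when any 1 pool other than young replicate 4 was left out, with differences of 0.40 to 0.49 over the 8 fits. Pdk4, which fasting, fatty acids and glucocorticoids induce, differed by -0.25 (SE 0.154, adjusted p = 0.578), Pdk2 by -0.05 and Pdk3 by 0.0046.

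Since HIF binds short DNA words with the core letters ACGTG or GCGTG, these letters were searched on both strands of the promoters in RefSeq (build GRCm38.p6, 250 bases before to 50 after the start). The 250 bases upstream of the start of Pdk1 and Bnip3, the genes that rose and have an entry, are shown 5′ to 3′ on the strand of the gene, with matches in capitals. They are printed to show how differently the letters lie in the promoters of the genes that rose. Matches of both strands can share letters, as in CACGTG.
Pdk1, chr2:71872974-71873223, plus strand: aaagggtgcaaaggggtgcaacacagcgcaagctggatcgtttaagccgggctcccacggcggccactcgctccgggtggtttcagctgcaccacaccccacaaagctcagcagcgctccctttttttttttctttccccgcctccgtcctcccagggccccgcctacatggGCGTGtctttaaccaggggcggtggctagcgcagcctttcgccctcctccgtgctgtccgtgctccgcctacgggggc
Bnip3, chr7:138909507-138909756, minus strand: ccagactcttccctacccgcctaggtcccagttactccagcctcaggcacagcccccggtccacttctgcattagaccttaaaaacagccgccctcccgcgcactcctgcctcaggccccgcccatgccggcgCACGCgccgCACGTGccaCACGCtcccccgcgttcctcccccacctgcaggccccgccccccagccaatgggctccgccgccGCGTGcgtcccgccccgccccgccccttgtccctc
The Pdk1 stretch holds 1 match, which begins 78 bases before the start, and the Bnip3 stretch holds 5, of which 4 begin between 117 and 99 bases before the start and include both strands of CACGTG. A second Pdk1 promoter in the table holds none.

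The letters were frequent in the promoters of the other genes as well. Of the 48 genes, 43 had an entry, with 62 promoters of 300 bases, and 77.4% of these held ACGTG or GCGTG, against 57.9% of the promoters of all genes tested here and 43.8% of all promoters in the table. ACGTG alone was present in 46.8%, against 23.9% and 19.6%. Among the 8 genes whose aged pools all lay above the young pools, 7 had an entry, and 7 of their 9 promoters (77.8%) held the letters, close to the share over all 62. ACGTG alone was present in 3 of these 9 (33.3%). The letters contain the pair CG, of which the promoters of the 48 genes held a median of 20 and those of all genes tested 18. Among promoters with 12 to 25 such pairs, 85.7% of those of the 48 genes held the letters, against 66.5% of those of all genes tested. A match is not evidence of binding.

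The pentose phosphate genes showed no difference that passed. G6pdx and Pgd, the enzymes of the steps that make NADPH, differed by 0.06 (SE 0.0737) and 0.09 (SE 0.0741), and Taldo1, the transaldolase of the reversible branch, by -0.15. Tkt, the transketolase of that branch, had 4.49, 4.50, 4.51 and 4.39 in aged replicates 1 to 4, against 4.35, 4.37, 4.65 and 3.32 in young replicates 2 to 5. A single young pool, replicate 5, lay apart. The difference of 0.30 (SE 0.253, adjusted p = 0.720) was 0.02 without that pool. A second, dim Tkt probe, well above background on 4 aged and 3 young arrays, gave 0.33 (adjusted p = 0.601 in the fit of probes), and on it young replicate 5, at -3.95, was the highest young pool and the others lay between -5.01 and -4.51.

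Hif1a, the oxygen-labile subunit of HIF-1, was higher in every aged pool. Its signal was 1.75, 1.93, 1.69 and 1.70 in aged replicates 1 to 4, against 1.38, 1.31, 1.55 and 1.49 in young replicates 2 to 5. The nearest pools were 0.14 apart, and the difference of 0.34 did not pass (SE 0.0891, adjusted p = 0.0941). It was 0.33 in the first and 0.34 in the second row of the slide, and a second, dim probe gave 0.33 with overlapping pools. Epas1, which encodes HIF-2α, differed by 0.03, and Arnt, the stable partner of both, by 0.13. The sensors that mark HIF for destruction gave no call. The prolyl hydroxylases Egln1 and Egln2 differed by -0.10 and -0.02, and Egln3, itself induced by HIF, by 0.23 (SE 0.122, adjusted p = 0.478). Vhl, which hands the hydroxylated subunit to the proteasome, differed by -0.13.

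Among 8 hypoxia targets 1 rose and none fell. Bnip3 encodes a mitochondrial protein that directs mitochondria to autophagy and can promote cell death. Its signal was 2.94, 2.91, 2.93 and 3.33 in aged replicates 1 to 4, against 2.48, 2.35, 2.37 and 2.12 in young replicates 2 to 5. The lowest aged pool lay 0.43 above the highest young pool. Bnip3 rose by 0.70 (SE 0.122, adjusted p = 0.0208 in limma), a fold of 1.62, read by its 1 probe at chr7:146082760-146082819 of mm9. The difference was 0.90 in the first row of the slide, which holds the highest aged and the lowest young pool, and 0.50 in the second row. Without aged replicate 4 it was 0.60 (adjusted p = 0.0261). The call was lost without aged replicate 3, young replicate 3 or young replicate 4, at adjusted p values of 0.0515, 0.0632 and 0.0560. Bnip3l, its close relative, differed by -0.10 (SE 0.0856), with overlapping pools.

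Adm encodes adrenomedullin, a peptide that widens blood vessels and is made under hypoxia. Its signal was 3.69, 3.20, 3.26 and 3.85 in aged replicates 1 to 4, against 3.03, 2.74, 3.00 and 2.74 in young replicates 2 to 5. The pools did not overlap, and the difference was 0.62 (SE 0.161, adjusted p = 0.0870). It was uneven over the slide, 1.03 in the first row and 0.22 in the second. Neutrophil genes were also higher in the aged pools. The summed signal of 10 neutrophil markers was 3.68 to 10.8 in aged pools, highest in replicate 4, and 1.93 to 2.74 in young pools, and that of 14 leukocyte and macrophage markers was 32.5 to 48.5 and 26.6 to 39.1, with overlap. Of the 11 leukocyte and macrophage markers tested 1 rose, Cd14 (9.09%, against 2.37% of all genes). Of the neutrophil markers, 6 were tested and 3 rose, and Ngp, Ltf and Cxcr2 were not well above background on any array. The part of such cells in the differences of Bnip3, Adm, Hif1a and Slc2a3 was not tested.

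Ddit4 encodes REDD1, an inhibitor of mTOR that hypoxia, glucocorticoids and stress induce. Its signal was 2.73, 3.31, 3.10 and 3.11 in aged replicates 1 to 4, against 4.14, 4.14, 3.89 and 1.83 in young replicates 2 to 5. Young replicate 5 lay 2.06 below the next young pool and below every aged pool, while the other 3 young pools lay above every aged pool. The difference over all pools was -0.43 (SE 0.485, adjusted p = 0.817), and without young replicate 5 it was -0.99 (adjusted p = 0.0184). The fit without that pool is singled out because of the pool's own values, and is no independent evidence of a fall. The remaining targets differed by 0.26 for Ankrd37 (0.05 without young replicate 5), 0.11 for the carbonic anhydrase Car9, 0.07 for Ndrg1 and -0.03 for Ero1a, the oxidase of disulfide formation in the endoplasmic reticulum, and none passed.

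Differences of the size seen here are near the limit of 4 pools against 4. In simulated data of this design limma recovered 30.4% of genes given a log2 change of 0.5 and 74.9% of those given a change of 1. The simulation changed 200 of 20214 genes and drew the noise of each pool independently. In the real pools 479 genes rose and 162 fell, and 2 arrays had low weights, so the true rates may differ.

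**Figure D5:**
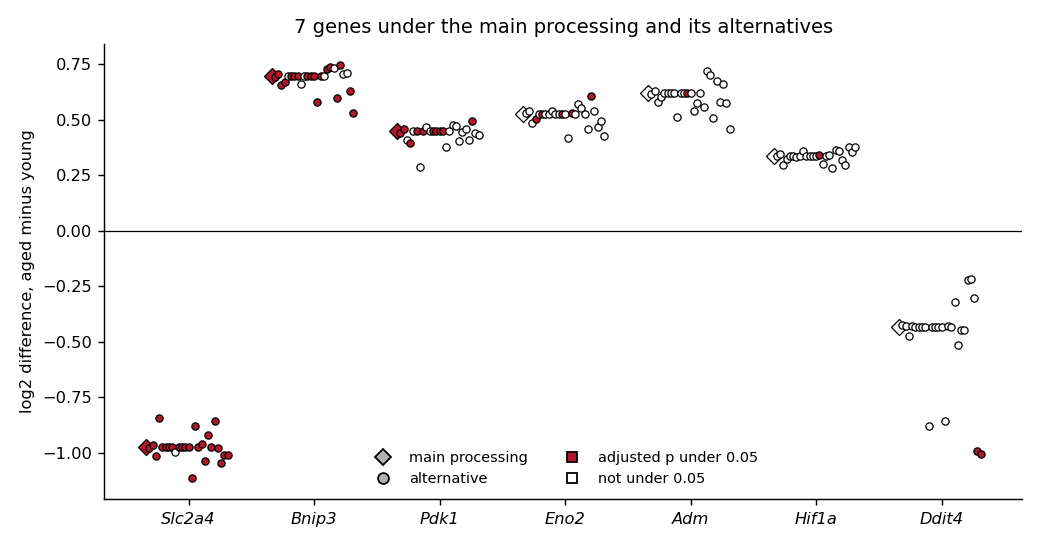
Log2 difference of 7 genes under the main processing (diamond) and each alternative (circles), filled where the adjusted p was under 0.05. Slc2a4 stayed below 0 and filled in all but 1 alternative, Bnip3 and Pdk1 stayed above 0 but lost the call in several, and Ddit4 was filled only where young replicate 5 was left out.

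Around the 48 genes, further genes of connected pathways seldom passed. Over 9 such lists and a list of glucocorticoid response genes, 169 genes were tested, of which 2 rose and 0 fell in limma. These are 1.18% and 0.00%, against the background of 2.37% and 0.801%. At an unadjusted p under 0.05, 13 of the 169 were higher and 16 lower, beside 8.5% and 5.66% of all genes. The first of the 2 that rose was Emb, embigin, a partner protein of lactate carriers. Its signal was -2.20, -1.51, -2.43 and -1.87 in aged replicates 1 to 4, against -2.73, -2.90, -3.42 and -3.08 in young replicates 2 to 5. The groups did not overlap and the difference was 1.03 (SE 0.217, adjusted p = 0.0429). Of the other genes of its list, Slc2a10, a glucose transporter of the GLUT family, differed by -0.33 with all aged pools below all young pools (adjusted p = 0.0601), and Slc2a13, a transporter of myo-inositol, by 0.41 with all aged pools above (adjusted p = 0.0901). The other was Lcn2, lipocalin 2, an iron-trapping secreted protein that inflammation induces far more widely than glucocorticoids. It rose by 3.42 (adjusted p = 0.0246), while no other gene of the 12 glucocorticoid response genes passed, with a median of 0.03.

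Of 21 other glycolysis and gluconeogenesis genes tested none passed. At an unadjusted p under 0.05, 4 were lower (19.0%, against 5.66% of all genes) and 2 were higher (9.52%, against 8.5%). The nearest were Pcx, pyruvate carboxylase (0.37, adjusted p = 0.0639), and Gpd1, cytosolic glycerol phosphate dehydrogenase (-0.59, adjusted p = 0.0651), both without overlap of pools. The largest difference was that of Pgam2, at -0.68 with all aged pools below all young pools (adjusted p = 0.220). The 10 genes of the pyruvate dehydrogenase complex and of pyruvate carriers lay between -0.22 and 0.09, with Mpc2 at -0.09 and Pdha1 at -0.10. Of 9 other pentose phosphate genes none passed, and the nearest were Shpk (0.29, adjusted p = 0.0938) and H6pd, which runs the first steps of the pathway inside the endoplasmic reticulum (0.28, adjusted p = 0.150). Among 15 other HIF pathway genes none passed. Hif1an, the asparagine hydroxylase of HIF, differed by -0.27. Arnt2, a relative of Arnt, was well above background on 4 aged arrays and no young array, and so was kept only through the group in which it was higher. Its signal was -4.99, -2.70, -4.67 and -4.90 in aged replicates 1 to 4, against -5.09, -5.88, -5.88 and -6.36 in young replicates 2 to 5, with aged replicate 2 far above the other aged pools.

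The 39 other hypoxia targets tested had a median of 0.11, and none passed. At an unadjusted p under 0.05, 6 of the 39 were lower (15.4%, against 5.66% of all genes) and 4 were higher (10.3%, against 8.5%). The nearest to the threshold were Trf, transferrin, which differed by 0.36 (adjusted p = 0.0521), and Lox, the collagen crosslinking enzyme, by 0.62 (adjusted p = 0.0601). Both had all aged pools above all young pools. The other higher genes were Pgm1 (0.24, adjusted p = 0.166), also without overlap, and Bhlhe41 (0.68, adjusted p = 0.331), with overlapping pools. The 6 lower genes were P4ha1 (-0.42, adjusted p = 0.0748) and Vldlr (-0.29, adjusted p = 0.123), both with all aged pools below all young pools, and Plod1, P4ha2, Stc2 and Vegfa, at -0.41 to -0.26 with overlapping pools. P4ha1, P4ha2 and Plod1 encode hydroxylases that modify collagen. Of 21 glycogen genes none passed, and the nearest was Ppp1r3d, a glycogen-targeting phosphatase subunit, at 0.61 (adjusted p = 0.0526), followed by Gsk3b at -0.23. The 9 hexosamine pathway genes lay between -0.19 and 0.17, with Uap1l1 at 0.17 and Gfpt1 at -0.19. Of 21 genes of fatty acid oxidation and uptake none passed, and the nearest were Fabp3, the fatty acid binding protein of heart muscle (-0.49, adjusted p = 0.282), and Acaa2 (-0.22, adjusted p = 0.318).

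The sorting markers were present. All 15 cMSC markers were well above background on all 8 arrays. Ly6a, which encodes Sca-1, differed by 0.67 (adjusted p = 0.0516), and Thy1 fell by 0.71 (adjusted p = 0.0476). Pdgfra, which encodes PDGFRα, differed by -0.21 with overlapping pools. Col1a1, Col1a2 and Col3a1 differed by -0.38 to -0.36 and did not pass. The aged pools all lay below the young pools for 4 of the 15 (26.7%, against 4.05% of all genes). At an unadjusted p under 0.05, 5 were lower (33.3%, against 5.66%) and 1 was higher (6.67%, against 8.5%). The 75th percentile of the processed signal was 509 to 793 on aged and 479 to 816 on young arrays, 57.8% to 63.4% of an array's spots stood well above background, and no spot was saturated.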

How the data were processed

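RNA of sorted cMSCs from 4 aged and 4 young pools was labelled with Cy3 and hybridized to 8 Agilent mouse expression arrays (SurePrint G3, version 2, 1 colour). Groups and pool numbers come from the sample labels. The authors deposited the scanner output of Agilent Feature Extraction 10.10.1.1, whose processed signal is an intensity with background subtracted and no normalization between arrays. They also deposited a table of quantile-normalized log2 values with a median of 8.12 on every array, not centred on genes, for which the sources used here do not give the background correction, filter or averaging. That table served as an alternative.

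Control spots and spots flagged as outliers were left out, and the processed signal was divided by the 75th percentile of each array and put on the log2 scale. Repeat spots were averaged. A probe was kept if the 4 arrays of either group all read it well above background, and each gene was read by its brightest kept probe. A RefSeq table of GRCm38.p6 named 32994 of 56605 probes by accession, and 10224 more have a current symbol in the array files. All 104 probes named for the 48 genes were followed, Ero1l under its present name Ero1a. Positions of probes come from the array files, on mm9.

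Groups were compared by lmFit and eBayes of limma 3.58.1 (R 4.3.3, 6 residual and 2.53 prior degrees of freedom), with Benjamini-Hochberg adjustment over 20226 genes. The test was first tried on simulated data for aged against young pools (20214 genes, 5 runs, 200 changed genes), where 4.65% of calls were false. Summaries used numpy 2.4.6 and pandas 2.3.3. Values in each pool are given for genes that passed, for genes whose pools do not overlap and for genes in which 1 pool lies apart, the last chosen after their values were seen. Of each further list, genes that passed are named, or else the 2 with the smallest p. Slc2a10, Slc2a13, Pgam2, Pgm1, Bhlhe41 and the 6 lower hypoxia targets were added after their values were seen. The 48 genes, their roles and the further lists were chosen with earlier results of these data known, so no list is independent evidence of a direction. Alternatives covered normalization, background correction, the filter, the choice of probe, blocks, limma options, the methods' t-test and thresholds, the log2 table and leaving out pools. Protein sequences were not used here. The number of arrays limits the precision.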

Additional observations from a re-analysis of the deposited data

Results flagged for a closer look

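Each of the 48 genes was examined in both groups of 4 pools for a highest or lowest pool set far apart from the others, by the gap to the nearest pool as a share of the range of the group. Chance flags about 1 in 20 groups, and 6 of 96 were flagged. Of the 6, aged replicate 4 was the pool in 3 and young replicate 5 in 2. For Ddit4, young replicate 5 at 1.83 lay 2.06 below the next young pool (share 0.891). For Slc16a3, the lactate exporter, the same pool at 1.28 lay 0.32 below the next (share 0.859). For Bnip3, aged replicate 4 at 3.33 lay 0.39 above the next aged pool (share 0.922), and for Aldoc the same pool at -3.20 lay 0.96 above the next (share 0.869). For Tkt, aged replicate 4 at 4.39 lay 0.10 below the next aged pool (share 0.843). For Pgd, aged replicate 2 at 2.07 lay 0.12 above the next aged pool (share 0.836). The causes were not tested.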

How the results depend on the processing

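The count of genes that rose, 2 in the main processing, was 1 with median scaling and with the mean of all kept probes, 0 without a filter on dim probes and with the methods' t-test, and 4 with limma's trend option. Leaving out 1 pool gave 0 to 2, and leaving out aged replicate 4 and young replicate 5 together, chosen after seeing the data, gave 1. The count that fell, 1 in the main processing, was 1 or 2 when 1 pool was left out, with 2 without young replicate 5, and 2 without both pools. Slc2a4 passed under 24 of 25 alternatives (-1.11 to -0.84), Bnip3 under 18 (0.53 to 0.75), Pdk1 under 10 (0.29 to 0.49), Eno2 under 5, Ddit4 under 2, and Adm and Hif1a under 1 each. Fewer pools and more genes tested weaken a test by construction, and the other causes were not tested.

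The sample labels do not say whether pools of the same number were paired. Deviations of same-numbered pools correlated at 0.18, -0.17 and -0.27 for numbers 2, 3 and 4. The pools numbered 2 shared a row of the slide, and those numbered 3 and 4 did not. Pairing and slide row cannot be told apart here, so the correlations cannot decide whether the pools were paired. With the pool number as a replicate block, 0 of the genes rose and 0 fell, where 14 and 2 of all genes were called. With the pool code as a replicate block, which also joins aged replicate 1 and young replicate 5 (correlation 0.14), 0 rose and 1 fell, where 207 and 51 of all genes were called.

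Of the 20 genes with a difference beyond 0.2, only Hk2 turned sign. Over the 8 fits that leave out 1 pool it ran from -0.0042 to 0.50. It was -0.0042 without aged replicate 4 and -0.00081 without both pools. Of the 28 genes within 0.2, of which the largest difference was 0.15, 17 turned sign under some alternative and 0 passed under any.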
